A study of Mus musculus with 14 samples.

Results

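The genes described here are 37 mouse genes of protein folding and quality control in the endoplasmic reticulum (ER): 11 chaperones and co-chaperones, 5 protein disulfide isomerases, 10 genes of ER-associated degradation, 4 sensors and transcription factors of the unfolded protein response, 6 genes of protein translocation and the ubiquitin-like modifier Ufm1. They were chosen by name, and each was read from the probes that carry its name on the array. All 37 had a probe, and 36 of them were among the 21300 genes that passed the filter on dim probes. The cells were mSCC-38, a line from a chemically induced mouse skin squamous cell carcinoma (DMBA/TPA model). They were transfected with the lipid reagent RNAimax and either Si1AK or Si2AK, both siRNAs against the transcript AK144841, or a control siRNA called SiC, and were collected 72 h later. Untransfected cells, called NT, had no time given. The 14 single-colour Agilent arrays comprised 4 NT, 3 SiC, 4 Si1AK and 3 Si2AK arrays, all from the same line, so every result describes that line only. Nothing in the labels says that replicates came from separate cultures, so each p-value covers only how far these samples scatter, and that scatter may be technical. The level of AK144841 itself was not analysed here, so the knockdown was not checked.

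Proteins that enter the secretory pathway are threaded into the ER through the Sec61 channel, folded by chaperones such as BiP (Hspa5) and given disulfide bonds by the isomerases. Chains that fail to fold are recognised by lectins such as Edem1 and Os9, passed back across the membrane through a complex built around the ubiquitin ligase Hrd1 (Syvn1) and its partner Sel1l, and degraded by the proteasome. When unfolded proteins build up, the membrane sensors Ire1 (Ern1), Perk (Eif2ak3) and Atf6 start the unfolded protein response, in which Ire1 splices the Xbp1 mRNA and active Atf6 and Xbp1 switch on folding and degradation genes.

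Levels are log2 of the processed signal minus the 75th percentile of that array, and differences are log2 differences between group means. A gene was called, and is said to have risen or fallen, at an adjusted p below 0.05 in limma (Benjamini-Hochberg over all genes tested). In cultures measured in bulk, fewer cells of a kind and less RNA per cell cannot be told apart. A pair of arrays stood apart. SiC replicate 1 had a median processed signal of 270.9 with 90.3% of probes well above background, and Si2AK replicate 2 had 107.5 and 84.5%, against 23.5 to 58.7 and 51.7% to 59.4% on the other arrays. SiC replicate 1 was the lowest SiC array in 33 of the 36 genes tested and the lowest of all arrays in 23. Counts and medians against SiC are given with and without it, and so are the differences of most genes named. Of 10 keratinocyte markers, 8 were well above background on all arrays, among them Krt5 at 8.08 to 8.72, whereas the adhesion gene Cdh1 was so on 10 arrays and ranged from -6.98 to -2.46. The summed linear level of the keratinocyte markers was 1030 to 1090 in Si2AK, 761 to 981 in SiC, 833 to 938 in Si1AK and 1020 to 1180 in NT. With Si2AK against SiC 4 of the 10 rose and 0 fell, against 8.53% of all genes higher and 4.67% lower. They were Krt14 (0.36), Trp63 (0.58), Itgb4 (0.63) and Sfn (0.88). The median of the 10 was 0.38, and without SiC replicate 1 it was 0.461 with 3 that rose. Of the markers of other cell types, Tyrp1 was well above background on 0 arrays, Lum, Lyz2, Tek and Dct on 2 and Ptprc on 3, whereas Itgam (2.85 to 3.66), Kdr (2.85 to 3.70), Cd68, Cd3e, Pecam1, Cdh5, Col1a1, Pdgfra, Mitf, Tyr and Mlana were so on all 14. Pdgfra (0.84, limma adjusted p = 0.00296) and Mitf (0.97, 0.00926) rose with Si2AK against SiC. They were the only genes called of 6 tested fibroblast and 3 tested melanocyte markers. Differences were below 0 in 2 of the 6 and 2 of the 3. The medians were 0.56 and -0.38, and 0.801 and 0.325 without SiC replicate 1. The summed fibroblast markers (3 of 7 well above background on all arrays) ran from 1.56 to 1.99 in Si2AK and from 1.02 to 1.57 in SiC. The summed melanocyte markers (3 of 5) ran from 3.82 to 4.10 and from 2.30 to 2.60. Mitf was the brightest of these 5, with a median log2 level of 1.01 over all arrays, and Mlana was next at -2.65. The summed leukocyte markers (4 of 6) ran from 10.4 to 11.4 and from 10.6 to 15.8, and the endothelial ones (3 of 4) from 8.82 to 11.4 and from 8.00 to 9.43. The part of these markers in the results below was not tested.

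Because Atf6 and Xbp1 are known to act through the ER stress response element (ERSE), the promoters were searched for its letters. RefSeq windows (GRCm38.p6) from 250 bases before to 50 bases after the start were given for 31 of the 37 genes. The ERSE, read as ccaat and ccacg with 9 unspecified letters between them on either strand, was found in 9 of them (29.0%), namely Calr, Canx, Creld2, Derl3, Dnajc3, Hsp90b1, Hspa5, Pdia6 and Syvn1, against 0.137% of all 27025 genes with a window. The shorter ERSE-II, read as attgg, 1 unspecified letter and ccacg on either strand, was found in Dnajb11 and Herpud1 (6.5% against 0.0444%). The genes were chosen by name from the pathway these elements are known to serve, so the shares are a description and no test. A match describes letters only and is neither a shown site nor a cause. The first 3 stretches below belong to genes that rose with Si2AK against SiC, and the other 4 to genes with the same letters that were not called in that comparison. Each is written from 5′ to 3′ on the strand of the gene, and capitals mark the fixed letters of the element, which read in reverse complement in Calr and in the second match of Hsp90b1.
Herpud1 (ERSE-II, chr8:94386357-94386407, plus strand): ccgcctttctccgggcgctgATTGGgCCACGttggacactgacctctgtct
Syvn1 (ERSE, chr19:6046512-6046570, plus strand): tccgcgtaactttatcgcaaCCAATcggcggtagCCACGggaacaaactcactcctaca
Hspa5 (ERSE, chr2:34772005-34772063, plus strand): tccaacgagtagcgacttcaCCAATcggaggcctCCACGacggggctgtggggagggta
Dnajc3 (ERSE, chr14:118937807-118937865, plus strand): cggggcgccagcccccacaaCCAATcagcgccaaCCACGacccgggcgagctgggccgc
Canx (ERSE, chr11:50325780-50325838, minus strand): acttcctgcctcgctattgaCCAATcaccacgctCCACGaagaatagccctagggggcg
Calr (ERSE, chr8:84847055-84847113, minus strand): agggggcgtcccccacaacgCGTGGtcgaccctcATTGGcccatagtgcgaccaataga
Hsp90b1 (ERSE, chr10:86705513-86705676, minus strand): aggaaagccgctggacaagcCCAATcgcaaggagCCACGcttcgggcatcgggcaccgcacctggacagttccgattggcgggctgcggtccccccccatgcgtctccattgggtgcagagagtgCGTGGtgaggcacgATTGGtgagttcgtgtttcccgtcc

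With Si2AK, part of the ER genes rose against SiC, and the degradation genes and sensors held most of the largest differences. Of the 36 genes tested, 16 rose and 1, Atf6, fell, which is 47.2% of them, against 13.2% of all 21300 genes tested in that comparison (8.53% higher and 4.67% lower). The Si2AK and SiC arrays did not overlap in 24 of the 36 genes, against 25.9% of all genes without missing values. The median difference of the 36 genes was 0.38, against -0.02 for all genes. The largest increases were those of Dnajb9 (2.73-fold), Herpud1 (2.29-fold), Eif2ak3 (2.10-fold) and Vimp (2.01-fold). In 18 of the 36 genes all 3 Si2AK arrays lay above all 11 other arrays, which held for 7.52% of all genes without missing values, and in 0 of the 36 did they all lie below, against 4.28%. Without SiC replicate 1 the count of calls was 13 and the median 0.26 (0.067 for all genes, of which 7.26% were called higher and 5.43% lower), and without both arrays of raised signal they were 12 and 0.25. In the latter fit 1182 of all genes were called higher and 924 lower. On slide 1, which holds only SiC replicate 1 of that group, the median was 0.55, and on slide 2, which holds only Si2AK replicate 3, it was 0.27. All 17 called genes differed in the same direction within each slide. When only SiC and Si2AK arrays were fitted, limma called 0 of the 36 genes (17 at an unadjusted p below 0.05) and 0.418% of all genes, so the calls rest on the spread shared over the 4 groups.

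**Figure D1:**
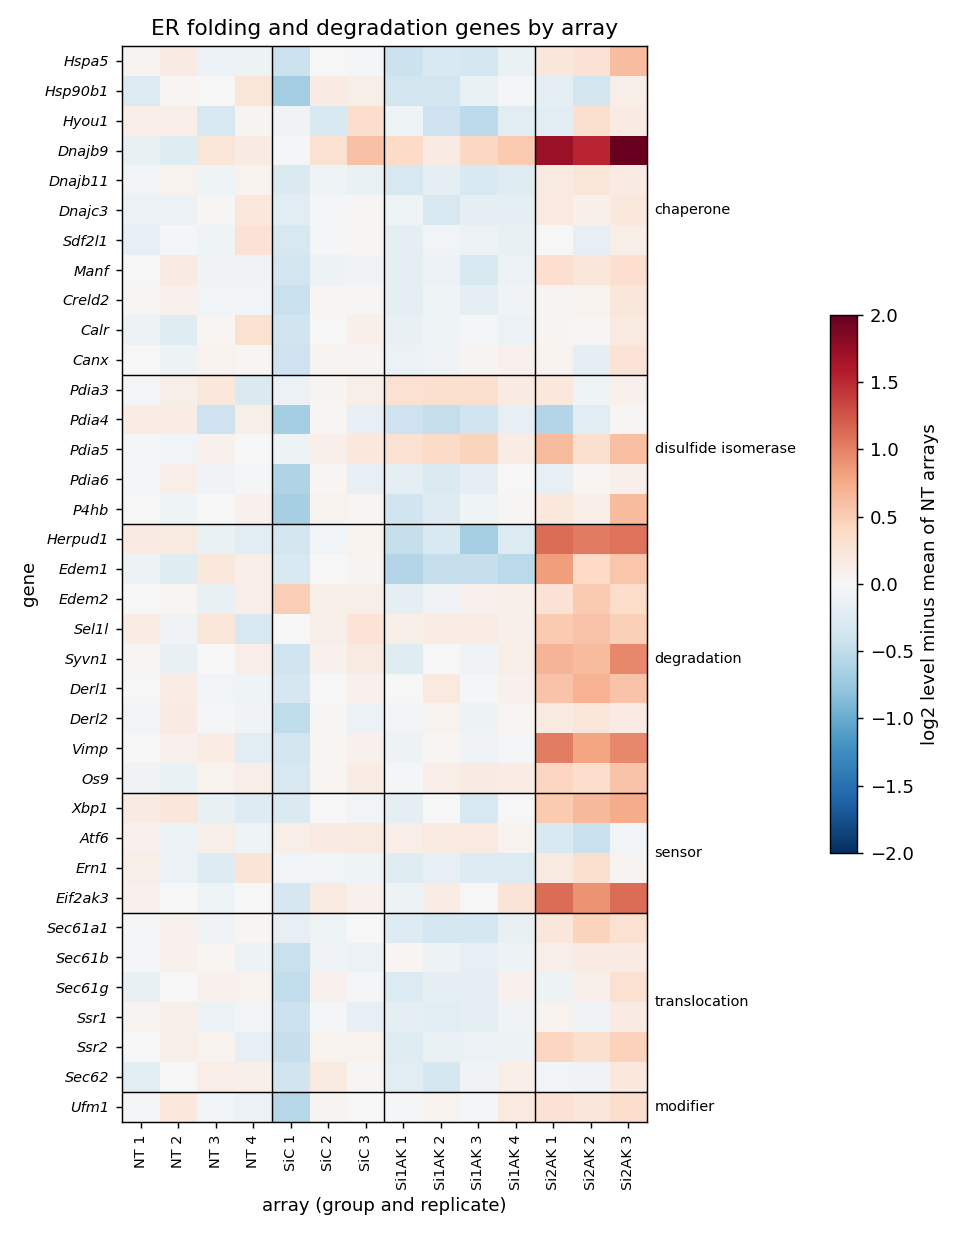
Each cell is the log2 level of a gene on an array minus the mean of that gene on the 4 NT arrays, for the 36 genes tested; rows are grouped by role and columns by group. The Si2AK columns are red in most degradation rows and in Dnajb9, Xbp1 and Eif2ak3, and the SiC 1 column is the lowest of all arrays in 23 rows.

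Of the 9 genes of ER-associated degradation tested, 6 rose with Si2AK against SiC and 0 fell, with a median difference of 0.68, or 5 and 0.56 without SiC replicate 1. Herpud1, a membrane protein that helps assemble the Hrd1 complex (probe at mm9 chr8:96919117-96919176), read 3.35, 3.36, 3.06 and 2.98 on the NT arrays, 2.82, 3.13 and 3.25 on SiC, 2.72, 2.88, 2.52 and 2.92 on Si1AK and 4.30, 4.22 and 4.28 on Si2AK. The 3 Si2AK arrays lay close together and above all 11 others. Its mean was 4.27 ± 0.038 (SD, n = 3) in Si2AK and 3.07 ± 0.22 (SD, n = 3) in SiC, a difference of 1.20 (SE 0.15, limma adjusted p = 0.000497), with 1.44 on slide 1, 1.09 on slide 2 and 1.08 without SiC replicate 1. Vimp, now called Selenos, is a selenoprotein of the channel that moves chains out of the ER. Its probe (mm9 chr7:73233759-73233818) read 3.83, 3.92, 3.98 and 3.61 on NT, 3.46, 3.88 and 3.92 on SiC, 3.74, 3.87, 3.76 and 3.81 on Si1AK and 4.86, 4.63 and 4.80 on Si2AK. Again the Si2AK arrays did not overlap with any other group, and the difference from SiC was 1.01 (SE 0.13, adjusted p = 0.000696), or 0.86 without SiC replicate 1.

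The ligase itself followed. Syvn1 (probe at mm9 chr19:6053583-6053642) read 4.35, 4.18, 4.31 and 4.46 on NT, 3.93, 4.41 and 4.50 on SiC, 4.09, 4.33, 4.25 and 4.44 on Si1AK and 5.0, 4.96 and 5.28 on Si2AK. Every Si2AK array was above every other array, and the difference from SiC was 0.80 (SE 0.15, limma adjusted p = 0.00593), or 0.62 without SiC replicate 1. Edem1, a lectin that hands misfolded glycoproteins to degradation (probe at mm9 chr6:108808920-108808979), read 2.28, 2.15, 2.60 and 2.52 on NT, 2.08, 2.39 and 2.44 on SiC, 1.80, 1.91, 1.93 and 1.85 on Si1AK and 3.23, 2.79 and 2.94 on Si2AK. The Si1AK arrays were the 4 lowest and the Si2AK arrays the 3 highest of the 14. Edem1 rose by 0.68 with Si2AK against SiC (SE 0.15, adjusted p = 0.01), or by 0.57 without SiC replicate 1. Derl1, a channel subunit, rose by 0.69 (adjusted p = 0.00287), with 0.97 on slide 1, 0.52 on slide 2 and 0.56 without SiC replicate 1. Os9, another lectin, rose by 0.49 (adjusted p = 0.0225). The Os9 call was lost without SiC replicate 1 (0.36, adjusted p = 0.0504), without Si2AK replicate 1 (0.50, 0.0618) and without Si2AK replicate 3 (0.43, 0.0793), and in the authors' deposited value table (0.33, 0.0725). The remaining tested members were not called: Sel1l differed by 0.39 (adjusted p = 0.0686), Derl2 by 0.41 (0.0518) and Edem2 by 0.15 (0.534). Leaving out SiC replicate 1 gave 0.33, 0.25 and 0.28 for these 3. Derl3, a channel subunit related to Derl1, was not tested, because it was well above background on 8 of the 14 arrays and on all arrays of no group. Its levels ran from -6.77 to -1.32 and were highest on SiC replicate 1 and Si2AK replicate 2, the arrays of raised signal.

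Among the sensors, 2 rose, 1 fell and 1 was not called with Si2AK against SiC, with or without SiC replicate 1. Eif2ak3 encodes Perk, the kinase that slows translation under ER stress. On its probe (mm9 chr6:70855152-70855211) the levels were 1.54, 1.45, 1.37 and 1.47 on NT, 1.12, 1.63 and 1.54 on SiC, 1.36, 1.60, 1.46 and 1.72 on Si1AK and 2.58, 2.36 and 2.57 on Si2AK. The gap between Si2AK and the highest other array was larger than the spread within any group. Eif2ak3 differed by 1.07 from SiC (SE 0.14, limma adjusted p = 0.000602), or by 0.92 without SiC replicate 1. Xbp1, whose probe (mm9 chr11:5425816-5425875) cannot be read as spliced or unspliced mRNA here, stood at 5.40, 5.46, 5.09 and 4.98 on NT, 4.94, 5.23 and 5.18 on SiC, 5.04, 5.22, 4.91 and 5.23 on Si1AK and 5.76, 5.88 and 5.98 on Si2AK. All 3 Si2AK arrays were again the highest, with a difference of 0.76 (SE 0.14, adjusted p = 0.00557), or 0.67 without SiC replicate 1.

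Atf6, a membrane-bound transcription factor, went the other way. Its levels were -0.64, -0.85, -0.62 and -0.82 on NT, -0.62, -0.57 and -0.55 on SiC, -0.60, -0.55, -0.53 and -0.67 on Si1AK and -1.03, -1.18 and -0.78 on Si2AK. The Si2AK arrays lay below SiC and Si1AK but overlapped with NT. The difference from SiC was -0.42 (SE 0.11, limma adjusted p = 0.0232). The call was lost without SiC replicate 2 (-0.41, adjusted p = 0.0595), SiC replicate 3 (-0.40, 0.0602), Si2AK replicate 1 (-0.40, 0.078) or Si2AK replicate 2 (-0.33, 0.086). Under quantile normalization and in the authors' deposited value table the differences were -0.35 and -0.32, and Atf6 was also not called, nor was it without both arrays of raised signal (-0.35, 0.0925). Ern1, which encodes Ire1, differed by 0.25 (adjusted p = 0.236) and was not called against SiC.

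**Figure D2:**
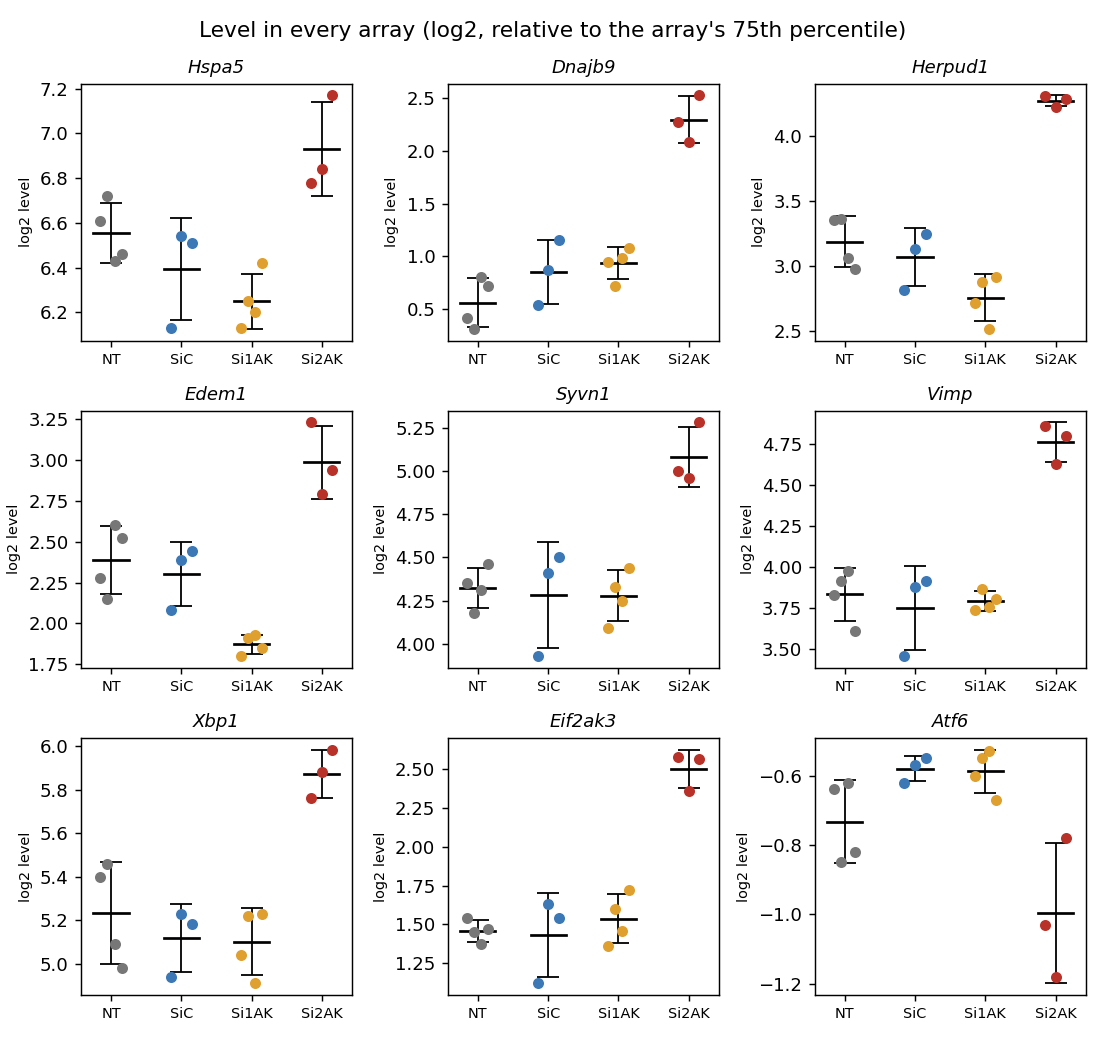
Points are the log2 level (relative to the 75th percentile of the array) of 9 genes on each of the 14 arrays, the horizontal line is the group mean and the bars are 1 SD; each panel has its own vertical axis, which does not start at 0. In every panel except that of Atf6 the 3 Si2AK arrays lie above all 11 others, and for Atf6 they lie below the SiC and Si1AK arrays.

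Of the 11 chaperones and co-chaperones, 4 rose with Si2AK against SiC and 0 fell: Hspa5, Dnajb9, Dnajb11 and Manf. The median difference of the 11 was 0.24, and without SiC replicate 1 it was 0.081, with 3 that rose. Dnajb9, a co-chaperone of BiP also known as ERdj4 (probe at mm9 chr12:45307313-45307372), had the largest difference of all members. It read 0.41, 0.31, 0.80 and 0.72 on NT, 0.54, 0.87 and 1.15 on SiC, 0.95, 0.72, 0.98 and 1.08 on Si1AK and 2.28, 2.09 and 2.53 on Si2AK. The lowest Si2AK array was above the highest other array, SiC replicate 3. The difference from SiC was 1.45 (SE 0.18, limma adjusted p = 0.000602), with 1.65 on slide 1 and 1.53 on slide 2, and it was called on each slide alone. It was 1.29 without SiC replicate 1. A second, dimmer Dnajb9 probe differed by 0.74 and was not called (adjusted p = 0.0654 over probes).

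Hspa5, the main ER chaperone BiP (probe at mm9 chr2:34631913-34631972), read 6.61, 6.72, 6.43 and 6.46 on NT, 6.13, 6.54 and 6.51 on SiC, 6.13, 6.25, 6.20 and 6.42 on Si1AK and 6.78, 6.84 and 7.17 on Si2AK. The Si2AK arrays were the highest 3, but only narrowly above NT replicate 2. The difference from SiC was 0.54 (SE 0.14, limma adjusted p = 0.0276). It was lost as a call without SiC replicate 1 (0.41, adjusted p = 0.0761), without Si2AK replicate 3 (0.42, 0.0985) and without both arrays of raised signal. Dnajb11, a further BiP co-chaperone, rose by 0.36 (adjusted p = 0.0127), and Manf, a small ER protein that binds BiP and can be secreted, rose by 0.48 (adjusted p = 0.00997). Both kept their calls without any single array, with 0.30 and 0.38 when SiC replicate 1 was left out. Dnajb11 was not called without both arrays of raised signal (0.28, 0.0791).

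The other 7 chaperones were not called, and their intervals show what the data allow. Hsp90b1, the ER form of Hsp90, differed by -0.01 (95% confidence interval -0.50 to 0.48). For the lectin chaperone Calr the difference was 0.18 (-0.14 to 0.51) and for its membrane relative Canx 0.15 (-0.16 to 0.46). Hyou1, an exchange factor of BiP, differed by 0.09 (-0.35 to 0.53). The BiP-associated Sdf2l1 differed by 0.10 (-0.19 to 0.38), the co-chaperone Dnajc3 by 0.24 (0.0085 to 0.48) and Creld2, an ER-stress-induced protein, by 0.24 (-0.02 to 0.51). The adjusted p of these 7 ran from 0.179 (Dnajc3) to 0.991 (Hsp90b1). Leaving out SiC replicate 1 moved Hsp90b1 to -0.29 (-0.67 to 0.096), Calr to 0.036, Canx to -0.0074, Hyou1 to 0.055, Sdf2l1 to -0.0061, Dnajc3 to 0.17 and Creld2 to 0.081, and none of them was called.

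Among the disulfide isomerases, Pdia5 alone of 5 was called, with a rise of 0.45 (SE 0.11, limma adjusted p = 0.0238). The Pdia5 levels were 1.12, 1.11, 1.25 and 1.17 on NT, 1.06, 1.26 and 1.38 on SiC, 1.47, 1.54, 1.61 and 1.31 on Si1AK and 1.80, 1.49 and 1.76 on Si2AK. Here the Si1AK and Si2AK arrays overlapped, and the call was lost without SiC replicate 1 (0.36, adjusted p = 0.065), SiC replicate 2 (0.46, 0.0517), Si2AK replicate 1 (0.39, 0.0941) or Si2AK replicate 3 (0.41, 0.0771). P4hb, the classical isomerase, differed by 0.51 (adjusted p = 0.115), with all Si2AK arrays at 5.19 to 5.69 above all others, and by 0.27 without SiC replicate 1, which read 4.40. With slide as a block P4hb was called (0.62, adjusted p = 0.00747). The median of the 5 isomerases was 0.24, and 0.054 with 0 called without SiC replicate 1 (Pdia5 missing the threshold as above). Pdia6 differed by 0.24, Pdia3 by 0.06 and Pdia4 by 0.01, with adjusted p from 0.373 to 0.991, and without SiC replicate 1 these were 0.054, -0.016 and -0.19.

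In the translocation group 3 of 6 genes rose, with a median difference of 0.30, or 2 and 0.19 without SiC replicate 1. Sec61a1, the pore-forming subunit of the channel, read 6.21, 6.34, 6.19 and 6.28 on NT, 6.09, 6.17 and 6.25 on SiC, 5.99, 5.91, 5.91 and 6.11 on Si1AK and 6.48, 6.70 and 6.56 on Si2AK. All Si2AK arrays were the highest, by a difference from SiC of 0.41 (SE 0.088, limma adjusted p = 0.00974), or 0.37 without SiC replicate 1. The Sec61a1 call was lost under quantile normalization (0.27, 0.0599) and without both arrays of raised signal (0.31, 0.0688). Ssr2, of the complex that sits beside the channel, rose by 0.52 (adjusted p = 0.0244), a call lost without Si2AK replicate 1 (0.50, 0.0773) or Si2AK replicate 3 (0.49, 0.0707) and kept, at 0.34, without SiC replicate 1. Sec61b, the small channel subunit, rose by 0.35 (adjusted p = 0.0461). It was lost without SiC replicate 1 (0.23, 0.101), SiC replicate 3 (0.40, 0.0536), Si2AK replicate 1 (0.37, 0.0969), Si2AK replicate 2 (0.34, 0.109) or Si2AK replicate 3 (0.34, 0.109), and with normexp, quantile normalization, the authors' deposited value table, array weights or both arrays of raised signal left out (0.20 to 0.32). Ssr1 (0.26), Sec61g (0.25) and Sec62 (0.09) were not called, with 0.15, 0.075 and -0.082 when SiC replicate 1 was left out. Ufm1, the modifier attached to ribosomes at the channel, differed by 0.46 (adjusted p = 0.0725) and was not called, although its Si2AK arrays (4.46 to 4.58) were above all others, and it differed by 0.26 without SiC replicate 1.

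With Si1AK, none of the 36 genes, each read from its brightest probe, passed the test against SiC. Of the 36 genes, limma called 0 (5 at an unadjusted p below 0.05), against 4.38% of all genes in that comparison (3.17% higher and 1.22% lower), and the median difference was -0.002 against -0.06 for all genes. It was -0.13 against -0.033 without SiC replicate 1, again with 0 called (4 at an unadjusted p below 0.05). The arrays of the groups did not overlap in 4 of the 36 genes, against 19.5% of all genes. The 5 with the low unadjusted p were Pdia5 (0.25), Herpud1 (-0.31), Edem1 (-0.43), Edem2 (-0.26) and Sec61a1 (-0.19). Edem1 had the lowest adjusted p of the 36 (0.107), and its 4 Si1AK arrays (1.80 to 1.93) did not overlap with SiC (2.08 to 2.44). Edem1 was called lower under quantile normalization, in the authors' deposited value table, with array weights and without both arrays of raised signal. With array weights, which gave SiC replicate 1 a weight of 0.0964, 6 of the 36 genes were called lower: Hspa5, Dnajb11, Herpud1, Edem1, Sec61a1 and Ssr2. Under those weights 1917 of all 21300 genes were called higher and 1781 lower. The 95% intervals of the genes with the largest Si2AK differences bound their Si1AK differences. They were -0.29 to 0.46 for Dnajb9, -0.17 to 0.38 for Eif2ak3 and -0.23 to 0.31 for Vimp. For Herpud1 the interval was -0.61 to -0.0071, and -0.73 to -0.13 without SiC replicate 1.

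Set directly against each other, the siRNAs differed in these genes. Si2AK was higher than Si1AK in 16 of 36 genes and lower in 1, against 12.5% of all genes called (6.32% higher and 6.15% lower), and the median difference was 0.37 against 0.10 for all genes. The arrays did not overlap in 25 of the 36 genes, against 29.5% of all genes. This comparison uses no SiC array, and without Si2AK replicate 2, the array of raised signal, 13 genes were called. All genes then called higher numbered 859, and those called lower 889. Herpud1 had the largest difference, 1.51 (SE 0.14, limma adjusted p = 5e-05), or 2.84-fold, followed by Dnajb9 with 1.37 (adjusted p = 0.000368) and Edem1 with 1.11 (adjusted p = 0.000313). Vimp and Eif2ak3 differed by 0.97 each, Syvn1 by 0.80, Xbp1 by 0.77, Hspa5 by 0.69, Sec61a1 by 0.60, Derl1 and Ssr2 by 0.55, Manf by 0.48 and Dnajb11 by 0.46, all called. These 13 differences had the same direction on both slides, with medians over all 36 genes of 0.34 on slide 1 and 0.36 on slide 2.

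The sensors were called in full, with Ern1 higher by 0.42 and Atf6 lower by 0.41 with Si2AK. The weakest calls were Ern1, Edem2 (0.41) and Dnajc3 (0.35), with adjusted p of 0.0322, 0.0399 and 0.0382. The call of Dnajc3 was lost without any one of the 7 arrays (0.31 to 0.39). That of Ern1 was lost without any one array but Si2AK replicate 3 (0.35 to 0.45), and that of Edem2 without any one but Si1AK replicate 4 (0.35 to 0.47). For Atf6 it was lost without Si1AK replicate 3 (-0.39), Si2AK replicate 1 (-0.39) or Si2AK replicate 2 (-0.32), and under quantile normalization (-0.45). The calls of Ern1, Edem2 and Atf6 were also lost without both arrays of raised signal. In the degradation group 6 of 9 genes were called higher, in the chaperones 5 of 11, in translocation 2 of 6 and among the isomerases 0 of 5 (1 at an unadjusted p below 0.05, P4hb). P4hb was called with slide as a block (0.56, adjusted p = 0.00761), with array weights and without both arrays of raised signal (0.60, 0.0142).

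**Figure D3:**
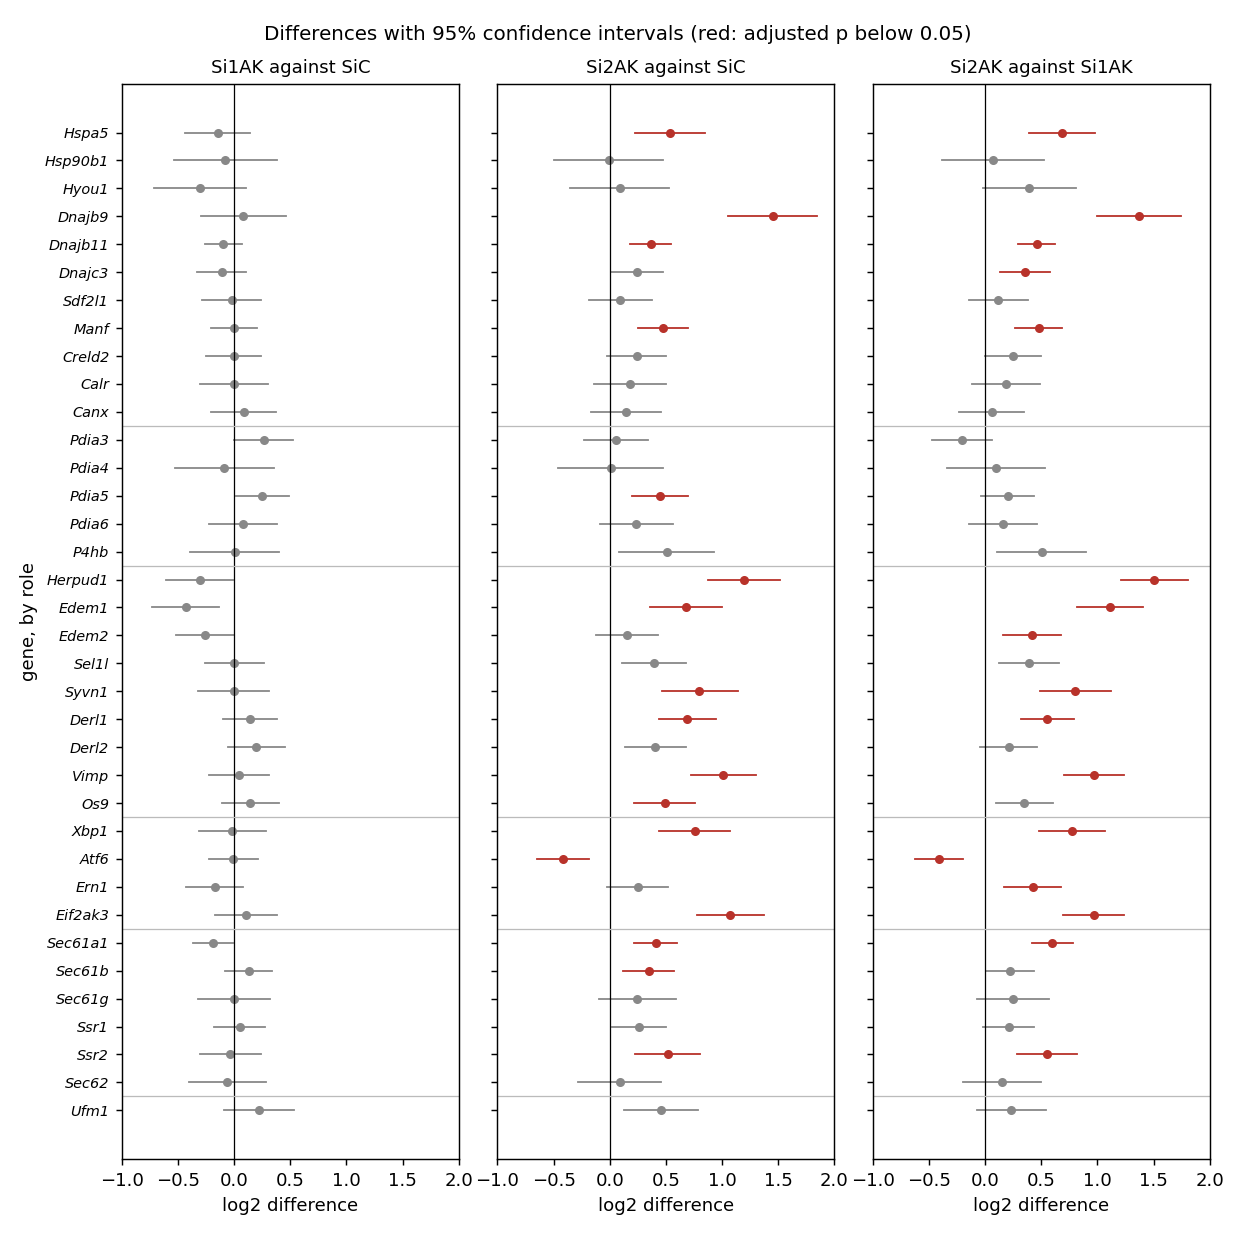
Points are log2 differences of the 36 tested genes in 3 comparisons, bars are 95% confidence intervals from limma and red marks an adjusted p below 0.05; genes are grouped by role. The Si1AK panel has 0 red genes, and the panels of Si2AK against SiC and against Si1AK have 17 each, with Herpud1, Dnajb9, Vimp and Eif2ak3 among the farthest from 0.

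Against untransfected cells, the control siRNA left 0 of 36 genes called (1 at an unadjusted p below 0.05, against 0% of all genes called by limma), with a median difference of -0.10 against -0.01 for all genes. The arrays did not overlap in 0 of the 36 genes, against 5.99% of all genes. That median was 0.03 without both arrays of raised signal. Comparisons with NT share the Si1AK or Si2AK arrays with those above and are given side by side only. Si2AK was higher than NT in 14 genes and lower in 0, against 15.6% of all genes called (7.97% higher and 7.68% lower), with medians of 0.24 and 0.02. The arrays did not overlap in 21 of the 36 genes, against 26.8% of all genes. Of the degradation genes 8 of 9 were called, with Derl2 (0.20) as the exception, and of the chaperones 1 of 11, Dnajb9, which differed by 1.74 (SE 0.17, limma adjusted p = 8.72e-05), or 3.35-fold. Herpud1 differed by 1.08, Eif2ak3 by 1.04, Vimp by 0.93, Syvn1 by 0.75, Xbp1 by 0.64, Derl1 by 0.61, Sel1l by 0.53 and Pdia5 by 0.52, and these were called without any single array. Hspa5 differed by 0.38 and was not called (adjusted p = 0.0796), nor was Manf (0.30, 0.054). Both were called with normexp, quantile normalization, the authors' deposited value table and without both arrays of raised signal. Manf was also called with array weights, with only probes well above background on all 14 arrays and without NT replicate 2. Dnajb11 was called in the authors' table. With slide as a block P4hb was called here too (0.38, 0.0423).

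Each of the other 5 calls against NT was lost when some single array was left out. Edem1 (0.60) was lost without Si2AK replicate 1 (0.48, limma adjusted p = 0.0549). Sec61a1 (0.33) was lost without NT replicate 1 (0.31, 0.0503) or Si2AK replicate 2 (0.27, 0.0897). Os9 (0.45) was lost without NT replicate 1 or 2 or Si2AK replicate 1 or 3 (0.39 to 0.46). Edem2 (0.39) was lost without any one array but NT replicate 4 (0.33 to 0.45), and Ssr2 (0.41) without any one of the 7 (0.35 to 0.45).

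Si1AK was lower than NT in 2 of 36 genes and higher in 0, against 7.08% of all genes called (4.03% higher and 3.04% lower), with a median of -0.13 against -0.09. The arrays did not overlap in 8 of the 36 genes, against 21.3% of all genes. Edem1 fell by 0.52 (SE 0.13, limma adjusted p = 0.0309) and Dnajb11 fell by 0.26 (SE 0.070, adjusted p = 0.0458). The Dnajb11 call was lost without any one of the 8 arrays (-0.29 to -0.24). That of Edem1 was lost without any one but NT replicate 2 (-0.55 to -0.45). Both were lost with normexp background correction, where Pdia5 was the gene called, higher by 0.32. Other alternatives also called Pdia5 higher, and slide as a block called Dnajb9 higher (0.37, limma adjusted p = 0.0283).

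The promoter letters and the response were set side by side for Si2AK against SiC. Of the 8 tested genes with an ERSE, 2 rose, Hspa5 and Syvn1, against 8.53% of all genes, and the median difference of the 8 was 0.24. Without SiC replicate 1 only Syvn1 of the 8 was called and the median was 0.068. Both genes with an ERSE-II rose, Herpud1 by 1.20 and Dnajb11 by 0.36. Of the 20 genes whose window held neither element, 8 rose, with a median of 0.40 (5 and 0.26 without SiC replicate 1), and among them were Dnajb9, Eif2ak3, Vimp, Xbp1 and Edem1. The 6 genes without a window had 4 that rose and 1 that fell, with or without that array. The core of the unfolded protein response element, tgacgtgg on either strand, was in 0 of the 31 windows (0.714% of all genes), and the amino acid response element letters tgatgcaa were in 1, Herpud1 (3.2% against 1.03%). Absence of these letters says only that they are not in this window of 300 bases.

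**Figure D4:**
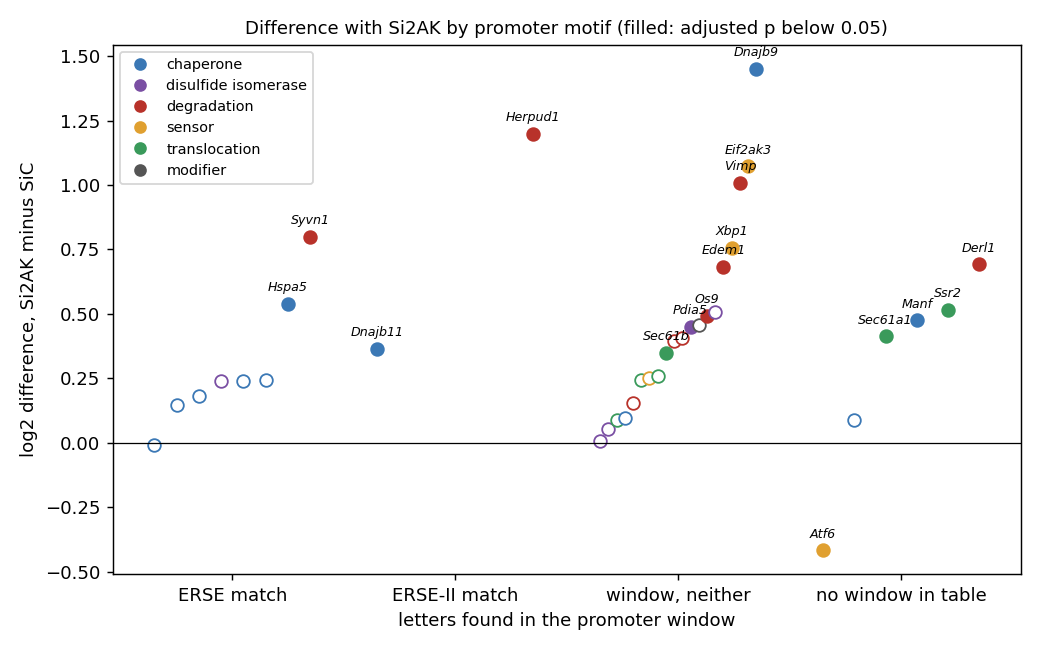
Points are log2 differences of Si2AK minus SiC for the 36 tested genes, placed by the letters found in the promoter window and coloured by role; filled points have an adjusted p below 0.05 and carry their names. The 8 genes with an ERSE match span -0.01 to 0.80, and the 20 with neither element span 0.01 to 1.45.

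Wider lists of the same pathways, which hold none of the 37 genes, are described by counts, to be read against the 8.53% of all genes called higher and 4.67% called lower with Si2AK against SiC (7.26% and 5.43% without SiC replicate 1). With Si2AK against SiC, 10 of 30 other degradation genes rose and 1 fell (median 0.24, or 8 and 1 with 0.15 without that array), and the 3 largest differences were those of Fam8a1, a partner of the Hrd1 complex (0.66), Faf2 (0.62) and the ubiquitin-conjugating enzyme Ube2g2 (0.59). Of 29 other genes of translocation and the first steps of glycosylation, 8 rose and 0 fell (median 0.26), led by the signal peptidase subunit Spcs2 (0.63), Ostc (0.55) and Srp68 of the signal recognition particle (0.55). Only 2 of these 29 rose without SiC replicate 1 (median 0.18), and Srp68 was then not called (0.51, limma adjusted p = 0.0615). Of 32 other folding genes 8 rose and 1 fell (median 0.16), and those that rose included the prolyl isomerases Fkbp14 (0.82) and Fkbp10 (0.66). Without that array the median was 0.11 and the counts were the same, but not all of the genes were. The gene counted as lower with all arrays is the glucosyltransferase Uggt2, which passed the filter through SiC alone and is given by its levels only: -3.12, -4.98 and -3.87 on SiC, where all 3 arrays were above background, and -5.65, -4.66 and -6.56 on Si2AK, where 1 was. Without SiC replicate 1 the folding gene called lower was Dnajc10 (-0.575, limma adjusted p = 0.0129), and Uggt2 was not called.

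Of 16 other regulators of the unfolded protein response, 8 rose and 0 fell with Si2AK against SiC (median 0.58), or 8 and 1 without SiC replicate 1 (median 0.58). Atf3, a stress-induced transcription factor, differed by 2.22 (SE 0.38, limma adjusted p = 0.00317), with means of 2.50 ± 0.42 (SD, n = 3) in Si2AK and 0.29 ± 0.73 (SD, n = 3) in SiC. Ppp1r15a, which restores translation by opposing Perk, differed by 1.82 (adjusted p = 0.00233), and Trib3 by 1.57 (adjusted p = 0.00467). With Si1AK against SiC, where 3.17% of all genes were called higher and 1.22% lower, none of the 16 regulators or 29 translocation genes was called, 1 of 30 degradation genes rose (Fam8a1, 0.48), and 4 of 32 folding genes rose and 2 fell. Of those folding genes Fkbp14 rose by 0.71 and Fkbp10 by 0.53, and neither was called between the siRNAs. These counts include Uggt2 (lower) and Clgn (higher), which passed the filter through SiC alone and Si1AK alone. Without SiC replicate 1, 2 folding genes rose and 0 fell, Fam8a1 was not called (0.32, limma adjusted p = 0.0751), the degradation gene Get4 (-0.40) and the translocation gene Srp14 (-0.44) fell, and 3 regulators fell, Trib3 (-1.11), Ddit3 (-0.99) and Chac1 (-0.74), against 2.42% of all genes higher and 1.12% lower. Between the siRNAs (6.32% of all genes higher and 6.15% lower), Si2AK was higher in 10 of the 16 regulators and lower in 1, in 7 and 1 of 30 degradation genes, in 6 and 0 of 29 translocation genes and in 4 and 0 of 32 folding genes. The largest of these were Atf3 (2.51), Trib3 (2.35) and Ddit3 (1.96).

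Where a gene had several probes above the filter, the brightest stood for it, and a few second probes differed. Both Derl1 probes were higher with Si2AK against SiC (0.69 and 0.55), but the second was lower with Si1AK against SiC (-0.50, limma adjusted p = 0.0123 over probes) where the first differed by 0.14. The second was also lower with Si1AK against NT (-0.60, 0.00222), where the first differed by 0.06. The second Pdia6 probe differed by 0.52 with Si2AK against SiC (limma adjusted p = 0.0193 over probes) against 0.24 for the brightest, and the third by -0.03. Other second probes were called higher with Si2AK where the brightest was not. Against Si1AK they were those of Pdia6 (0.43, 0.0324), Ufm1 (0.95, 0.00375) and Ssr1 (0.42, 0.0375). Against NT they were those of Pdia6 (0.52, 0.0108), Ufm1 (0.65, 0.0235) and Ern1 (0.79, 0.0072). The third probes of Pdia6, Ufm1 and Ssr1 were not called in these comparisons.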

How the data were processed

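Total RNA of mSCC-38 cells was labelled with Cy3, per the labels. Per the file headers, Agilent Feature Extraction 10.7.3.1 read the arrays, and the deposited processed signal is an intensity with background and spatial trends subtracted within each array. The files deposited also mark, with 0 or 1 and thus in another unit, which spots pass background or are outliers. In the table of values the authors deposited, on a log2 scale, every column has a median of 6.51, and limma is named in the submitters' processing notes. Its background step is not given in the sources used here, and it served as an alternative.

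Each array held 62976 spots, 59305 of them no controls. Outlier spots were removed, and a probe's remaining spots averaged. A probe was kept if some group had it above background on all of its arrays (30314 probes), and the brightest kept probe stood for a gene. The 21300 genes were tested over all 14 arrays (10 residual degrees of freedom) by lmFit and eBayes of limma 3.58.1, run in R 4.3.3. No probe was saturated, and no value of the 37 genes was missing. Names came from RefSeq accessions for 27656 probes. The 37 genes, the wider lists and the markers were chosen with earlier results of these data known. All 37 are accounted for, and of the wider lists up to 3 called genes per list and comparison are named, by the size of the difference. Fkbp10 is also given for Si1AK against SiC, because it is named for Si2AK. Dnajc10 is also given, because it fell when SiC replicate 1 was left out. One of the wider lists is not reported here. The fit was tested on simulated data. Alternatives covered background correction, normalization, the authors' table, filters, probe averaging, blocks, slides, array weights and left-out arrays. Counts by role, promoter class and list without SiC replicate 1 were added after seeing the data. The number of arrays limits the precision.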

Additional observations from a re-analysis of the deposited data

Results flagged for a closer look

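In the groups of 4 arrays, 2 of 72 sets of 4 values (2.78%) had an array far from the other 3, and chance gives about 1 in 20 such sets. Pdia4 stood at 2.02 on NT replicate 3, against 2.56 to 2.59 on the other NT arrays. Derl2 stood at 5.61 on NT replicate 2, against 5.37 to 5.40 on the others. Groups of 3 arrays were not examined in this way.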

How the results depend on the processing

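No called difference changed sign under any alternative run. For Si2AK against SiC, 10 genes were called with no filter on dim probes and 0 with only those 2 groups fitted (17 at an unadjusted p below 0.05). In that order, all genes called higher and lower numbered 992 and 534, and 70 and 19. Slide 1 holds 1 SiC array and slide 2 holds 1 Si2AK array, so calls by slide are not counted for this comparison. Slide 1 gave 2 calls for Si2AK against Si1AK (162 of all genes higher and 200 lower) and 2 for Si2AK against NT (277 and 166). Si1AK against SiC gave 1 call under quantile normalization, 1 in the authors' table, 6 with array weights and 1 without both arrays of raised signal. In that order, all genes called higher and lower numbered 878 and 357, 956 and 370, 1917 and 1781, and 659 and 327 of 21300. Si1AK against NT gave 1 call with normexp (Pdia5, higher), 4 with quantile normalization, 0 with no filter (8 at an unadjusted p below 0.05), 4 with slide as a block, 0 on either slide (7 and 3 unadjusted), 6 with array weights and 5 without both arrays. For Si1AK against NT, all genes called higher and lower numbered 835 and 762 with normexp and 1210 and 713 with quantile normalization. They numbered 1160 and 1056 with slide as a block, 1646 and 1765 with array weights and 1511 and 1604 without both arrays. Leaving out each array in turn gave 12 to 17 calls for Si2AK against SiC, 13 to 15 for Si2AK against Si1AK, 10 to 13 for Si2AK against NT, 0 to 1 for Si1AK against NT and 0 for the other comparisons. All genes called then numbered 1109 to 1710 higher and 647 to 1157 lower for Si2AK against SiC. They numbered 859 to 1103 and 889 to 1117 against Si1AK, and 1156 to 1457 and 1086 to 1460 against NT. For Si1AK against NT they numbered 511 to 718 and 289 to 495. With the replicate number as a block, 17, 17 and 12 genes were called for Si2AK against SiC, Si1AK and NT, 1 for Si1AK against NT and 0 for the rest. For Si2AK, all genes called higher and lower then numbered 1719 and 952 (SiC), 1244 and 1191 (Si1AK) and 1445 and 1393 (NT). For Si1AK against NT they numbered 764 and 650. Deviations of same-numbered arrays from their group means correlated from -0.693 to 0.736. Both extremes lie between SiC and Si2AK, whose means include the arrays of raised signal. Whether the numbers pair the samples therefore cannot be told from these values. Quantile normalization moved the median of all genes from -0.06 to 0.06 for Si1AK against SiC and from 0.10 to -0.04 for Si2AK against Si1AK, and the members' median there from -0.002 to -0.05 and from 0.37 to 0.33.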
